A study of Mus musculus with 12 samples.

Results

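Epithelial-mesenchymal transition regulators were described in 12 primary mammary tumours of mice through 10 listed genes: the transcription factors Snai1, Snai2, Twist1, Twist2, Zeb1 and Zeb2, and the markers Cdh1, Cdh2, Vim and Epcam. All 10 were among the 56860 genes of the count table, and all 10 passed the filter on low counts that left 30660 genes for testing. Tumours were taken at 4.5 months from 3 genotypes with 4 libraries each, and every genotype carried the MMTV-PyMT oncogene. The group called WT was MMTV-Cre; MMTV-PyMT by the design text, while its strain label names MMTV-PyMT alone. C3_KO tumours were MMTV-Cre;C3Tdt:MMTV-PyMT, and S1pr1_KO tumours were MMTV-Cre;S1pr1fl/fl; MMTV-PyMT. By the design text all groups therefore carry Cre. The MMTV promoter is active in mammary epithelium, and the labels do not say which other cells of these tumours it reaches. Cells that it does not reach can keep the targeted gene in a knockout tumour. Whether each of the 4 tumours in a group is from its own mouse is not stated in the labels, so p-values measure only the spread between these samples.

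Epithelial-mesenchymal transition is a switch in which epithelial cells loosen their junctions and take on a motile, fibroblast-like state. Snail, Twist and Zeb proteins drive it by binding short E-box motifs and repressing epithelial genes, above all Cdh1, while Vim and Cdh2 are read as signs of the mesenchymal state. Fibroblasts, endothelial cells and leukocytes also express several of these genes, and whole-tumour RNA holds all of those cells.

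The motif CACCTG, read as CAGGTG on the opposite strand, is an E-box that Snail and Zeb proteins bind. It was searched on both strands in the 250 bases before each start site in RefSeq promoters of build GRCm38.p6, which is older than the authors' build. Of the 10 genes, 6 were searched. Cdh1 and Snai2 had no entry, and Cdh2 and Zeb1 were left out of the search. The motif was present in Epcam and Snai1, whose sequences are shown because they hold the letters that this family of repressors reads. Capitals mark the motif.
Epcam: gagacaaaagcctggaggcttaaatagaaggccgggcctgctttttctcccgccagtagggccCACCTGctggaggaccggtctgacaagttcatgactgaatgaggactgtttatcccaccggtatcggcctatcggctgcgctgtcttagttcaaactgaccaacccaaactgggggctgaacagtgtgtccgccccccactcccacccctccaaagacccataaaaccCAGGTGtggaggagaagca
Snai1: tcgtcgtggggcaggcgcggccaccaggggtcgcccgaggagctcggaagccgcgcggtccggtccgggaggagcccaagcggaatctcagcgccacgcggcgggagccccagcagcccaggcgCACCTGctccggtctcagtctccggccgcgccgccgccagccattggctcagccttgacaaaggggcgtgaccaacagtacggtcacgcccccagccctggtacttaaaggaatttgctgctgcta
The Epcam sequence is chr17:87635729-87635978 on the plus strand, and its copies of the motif begin 187 and 19 bases before the start. The Snai1 sequence is chr2:167537945-167538194 on the plus strand, and its single copy begins 126 bases before the start. Twist1, Twist2, Vim and the 4 annotated starts of Zeb2 had no copy in this window. Across 32851 such promoters, 17.2% held the motif at least once and 2.06% held it 2 or more times, as Epcam did. The broader form CANNTG, which contains it, was present in 66.2%. These matches describe letters in a window and were not tested for binding.

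Library totals ran from 230.4 to 484.0 M (M stands for 1e6 counts), with a median of 361.7 M. The lowest count of any of the 10 genes was 131, for Twist2. The tumours had high epithelial keratins, with Krt8 at 237.4 to 970.8 FPKM and Krt18 at 358.4 to 1342 FPKM. The targeted genes did not separate the genotypes. C3 was 59.7 ± 17.6 CPM (SD, n = 4) in C3_KO and 101 ± 58.2 in WT tumours, with 47.8, 74.5, 41.6 and 75.1 CPM against 182, 89.2, 90.3 and 43.3. S1pr1 was 4.64 ± 2.35 CPM in S1pr1_KO and 5.21 ± 2.63 in WT tumours, with 5.76, 7.43, 2.59 and 2.80 CPM against 6.87, 8.02, 2.88 and 3.05. edgeR's adjusted p was 0.765 for C3 and 0.874 for S1pr1, so these genes gave no check of the labels. Some libraries stood apart. S1pr1_KO replicates 1 and 4 had salivary gland marker scores (mean log2 CPM of the list) of 10.35 and 7.72, against -1.16 to 4.04 in the other libraries, and these markers took 13.4 and 1.20% of their counts. In C3_KO replicate 3, 7 milk protein genes took 8.76% of the counts, against 0.118 to 0.588% elsewhere. That library also had the highest skin keratinocyte score, 5.41 against -1.93 to 3.18 in the other libraries. S1pr1_KO replicates 1 and 2 were highest in lymphocyte markers. Each comparison was therefore repeated without S1pr1_KO replicates 1 and 4 and C3_KO replicate 3.

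On the FPKM scale, which divides by the deposited gene length, Epcam, Cdh1 and Vim were far above the transcription factors. Epcam had the highest median at 266.4 FPKM, followed by Vim at 87.4 and Cdh1 at 71.1. Medians of the transcription factors were 3.86 FPKM for Snai1, 2.82 for Snai2, 2.07 for Twist1, 0.979 for Zeb1, 0.822 for Zeb2 and 0.275 for Twist2. This order depends on the lengths used, such as 1621 bases for Snai1, 10266 for Zeb1 and 20203 for Zeb2. By average log2 CPM, which ignores length, Zeb2 (4.1) and Zeb1 (3.61) were above Snai1 (2.79), Snai2 (2.57) and Twist1 (1.95). Cdh2, the neural cadherin, had a median of 0.889 FPKM. Some neighbours in this order were separate in every library: Epcam exceeded Vim, Cdh1 exceeded Snai1 and Zeb2 exceeded Twist2 in 12 of 12. Others crossed: Vim exceeded Cdh1 in 9 of 12 libraries, Snai1 exceeded Snai2 in 8, Zeb1 exceeded Cdh2 in 7 and Cdh2 exceeded Zeb2 in 8. The ratio of Cdh1 to Cdh2 in FPKM, a common reading of the cadherin switch, was 40.5 to 209 over the libraries. In WT tumours it kept to 69.6 to 75.3, while it spread from 41.7 to 209 in C3_KO and from 40.5 to 121 in S1pr1_KO tumours, with medians of 73.3, 90.0 and 83.3.

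The genes differed in how much they varied between tumours of 1 genotype. Snai1 varied most, with a within-genotype SD of 0.87 on the log2 CPM scale and a 7.19-fold range over the 12 libraries. Twist1 had an SD of 0.74, Cdh2 of 0.69, Snai2 of 0.66, Zeb2 of 0.64, Zeb1 of 0.61 and Twist2 of 0.51. The abundant markers varied less, with 0.41 for Vim, 0.32 for Epcam and 0.28 for Cdh1. The median SD was 0.44 over the 15879 genes whose log2 CPM averaged 1 or more.

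**Figure D1:**
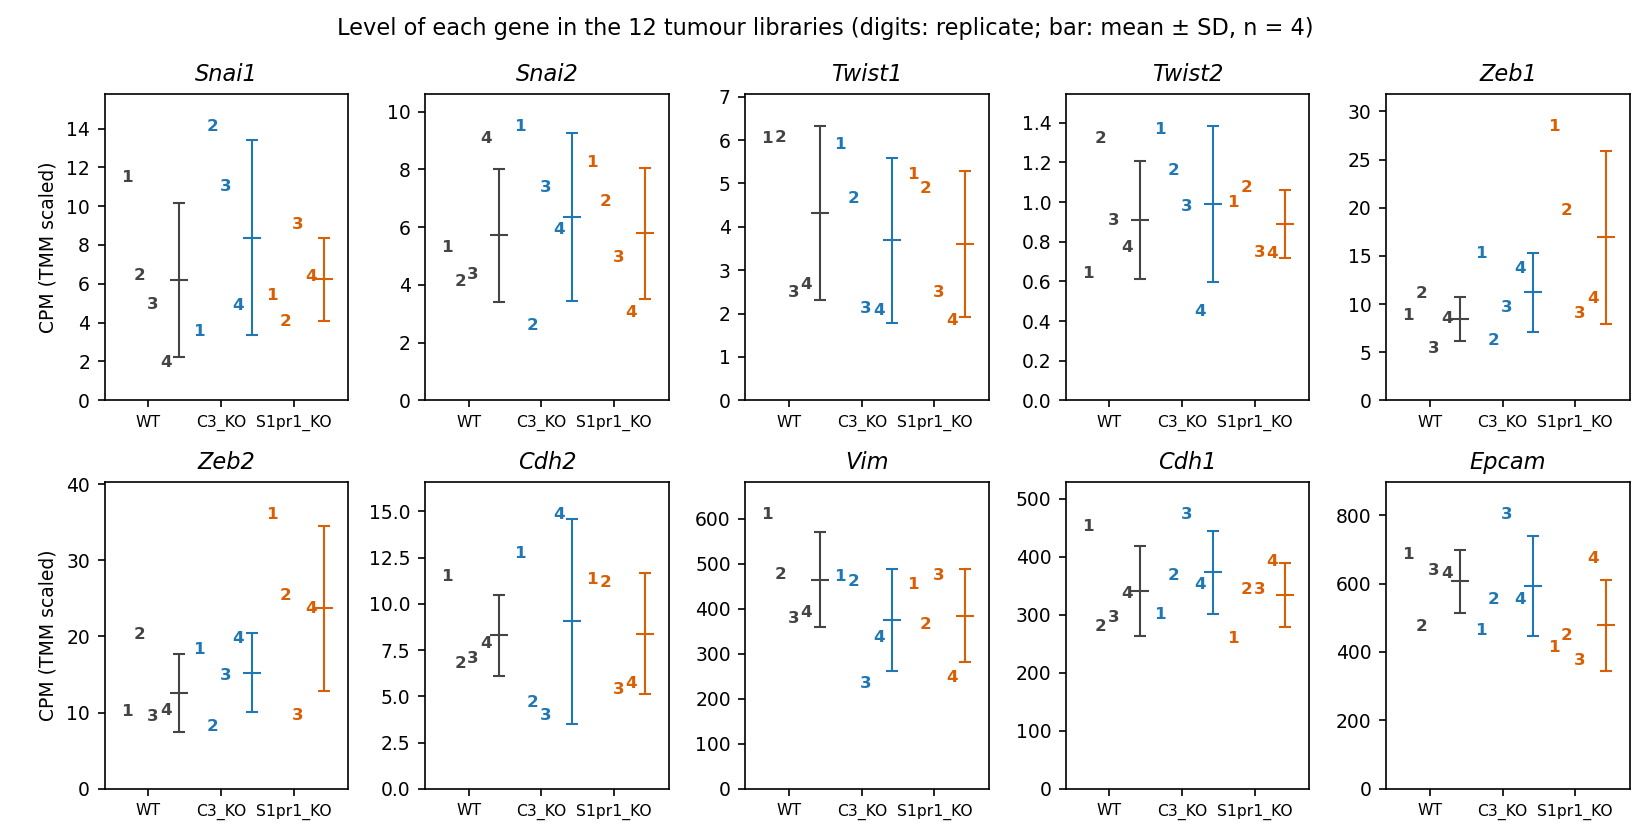
CPM of each of the 10 genes in every library, by genotype, with digits for the replicate and bars for the mean and SD of 4 libraries. For every gene the groups overlap; S1pr1_KO replicates 1 and 2 are the highest libraries for Zeb1 at 28.5 and 19.7 CPM, and Twist1 splits replicates 1 and 2 from 3 and 4 in each genotype.

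None of the 10 genes passed the test in any comparison. edgeR's quasi-likelihood test called 0 of 10 at an adjusted p of 0.05 between C3_KO and WT, between S1pr1_KO and WT, between S1pr1_KO and C3_KO, and for any difference among the 3 genotypes, where 0% of all 30660 genes were called in each. At an unadjusted p of 0.05 the count was 0 of 10 for C3_KO against WT, where 6.23% of all genes lay, 2 of 10 for S1pr1_KO against WT, where 15.5% lay, and 0 of 10 for S1pr1_KO against C3_KO, where 3.4% lay. No gene of the 10 had groups that did not overlap in CPM, a pattern that 3.04%, 7.58% and 1.31% of all genes showed in these comparisons. DESeq2 and limma on log2(FPKM + 1) called 0 of 10 throughout. Of all 30660 genes, DESeq2 called 82 for C3_KO against WT, 955 for S1pr1_KO against WT, 114 for S1pr1_KO against C3_KO and 466 for any difference. For limma on log2(FPKM + 1) these counts were 0, 30, 0 and 1. Few genes of any list of 10 would be called at such shares. limma-voom with sample quality weights called 2 of 10, Zeb1 and Zeb2, for S1pr1_KO against WT, beside 25.6% of all genes, and 1 of 10 for any difference, beside 12.6%. In C3_KO against WT, 7 genes lay above 0 and 3 below with a median log2 fold change of 0.13, against 0.05 over all genes. In S1pr1_KO against WT, 5 lay on either side with a median of -0.01, against 0.03 over all genes. Between S1pr1_KO and C3_KO, 3 lay above and 7 below with a median of -0.12, against -0.03. These comparisons share samples and are not independent of each other.

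**Figure D2:**
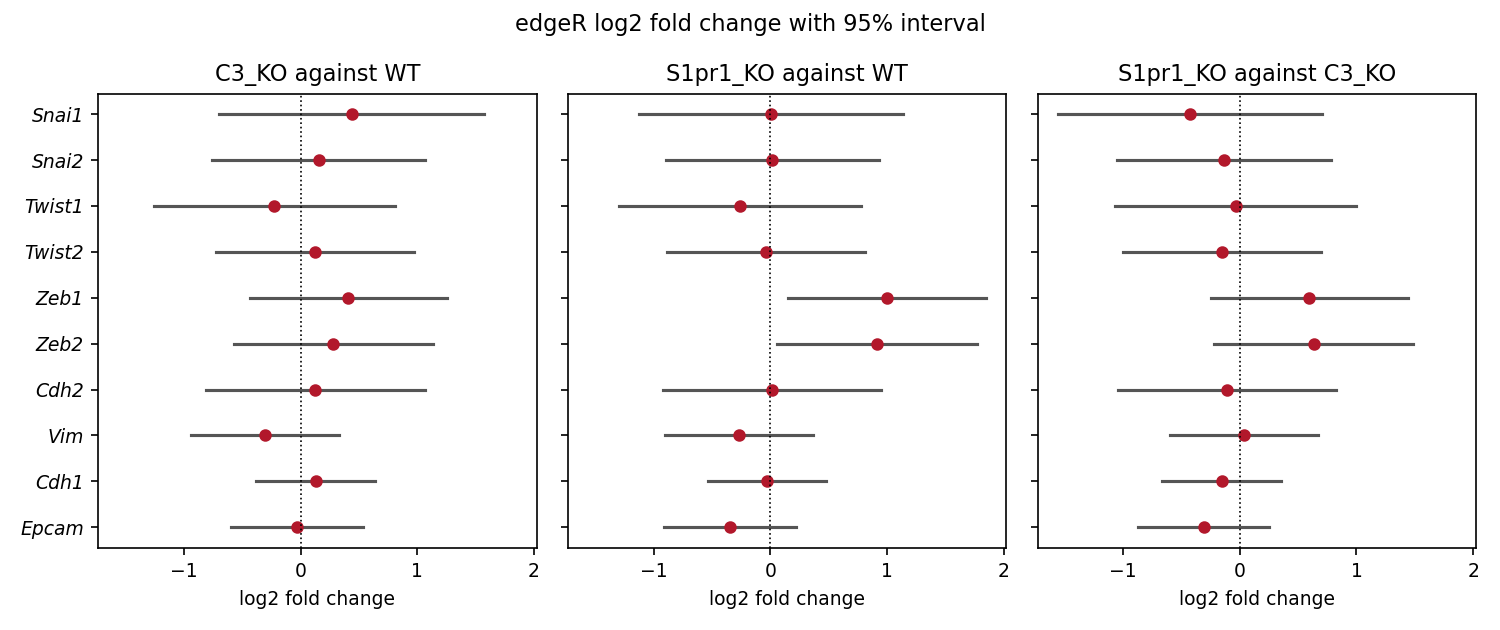
edgeR log2 fold change (points) with its 95% interval (lines) for each gene in the 3 comparisons, with a dotted line at 0. Zeb1 and Zeb2 in S1pr1_KO against WT, at 1.00 and 0.92, are the only intervals that leave out 0.

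Zeb1, a zinc-finger repressor of Cdh1, had the highest fold change of the 10 genes. Its level was 28.5, 19.7, 9.05 and 10.5 CPM in S1pr1_KO tumours 1 to 4, against 8.82, 11.1, 5.42 and 8.54 in WT and 15.2, 6.21, 9.68 and 13.7 in C3_KO tumours. S1pr1_KO replicates 1 and 2 were above every other library, and replicates 3 and 4 lay within the WT range. The mean was 16.9 ± 9.00 CPM (SD, n = 4) in S1pr1_KO and 8.46 ± 2.32 in WT tumours. The log2 fold change was 1.00 (SE 0.39, 95% interval 0.15 to 1.85), with an adjusted p of 0.273 by edgeR. Against C3_KO the log2 fold change was 0.59 (interval -0.25 to 1.44), and that of C3_KO against WT was 0.41 (interval -0.44 to 1.25). In whole-tumour RNA, a larger share of cells that express a gene and more RNA of it per cell cannot be told apart.

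Zeb2, its paralog, had a like pattern. It was at 36.0, 25.3, 9.68 and 23.7 CPM in S1pr1_KO tumours, against 10.2, 20.3, 9.53 and 10.2 in WT and 18.2, 8.17, 14.9 and 19.7 in C3_KO tumours. S1pr1_KO replicates 1, 2 and 4 were the highest of all libraries, replicate 3 lay beside the 3 lower WT libraries, and WT replicate 2 stood apart within its group. The mean was 23.7 ± 10.8 CPM (SD, n = 4) in S1pr1_KO and 12.6 ± 5.15 in WT tumours. The log2 fold change was 0.92 (SE 0.40, interval 0.06 to 1.77) with an adjusted p of 0.3 by edgeR. It was 0.28 (interval -0.57 to 1.13) for C3_KO against WT. Counts of the antisense gene Zeb2os came to 7.63 to 15.5% of the Zeb2 count. The handling of strand is not given in the sources used here, so reads of this pair cannot be told apart.

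Both Zeb values depended on single libraries. Without S1pr1_KO replicate 1, the log2 fold change against WT was 0.69 for Zeb1 and 0.70 for Zeb2. Without S1pr1_KO replicate 3 it was 1.25 and 1.22, with adjusted p of 0.0673 and 0.0587 by edgeR, and 1330 genes were then called over the whole table. Without the libraries rich in salivary or milk transcripts it was 0.82 and 0.54, with adjusted p of 0.739 and 0.84 by edgeR. limma-voom with quality weights gave 1.10 and 1.19 with adjusted p of 0.0266 and 0.0101.

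Markers of other cells were compared over the same libraries, and none was called. All 10 lymphocyte markers had a positive log2 fold change in S1pr1_KO against WT, with a median of 1.70. Their summed level was 18.4 to 195.9 CPM in S1pr1_KO, 15.7 to 25.8 in WT and 10.8 to 50.5 in C3_KO tumours, and no marker was at 0 in any library. The score of this list was 3.77, 2.81, -0.19 and 0.05 in S1pr1_KO tumours 1 to 4, so the 2 libraries highest for Zeb1 were also highest here, while replicate 4, high in Zeb2 at 23.7 CPM, was not. Ptprc, the pan-leukocyte CD45, was at 42.6 ± 26.3 CPM (SD, n = 4) in S1pr1_KO and 10.6 ± 3.42 in WT tumours, with an adjusted p of 0.231 by edgeR. Cd79b, a part of the B-cell receptor, was at 9.10 ± 10.9 and 0.648 ± 0.218 CPM, with an adjusted p of 0.216 by edgeR. All 14 fibroblast markers were positive too, with a median of 0.81, and their summed level was 2234 to 4835 CPM in S1pr1_KO, 1811 to 4614 in WT and 2664 to 4630 in C3_KO tumours. All 12 endothelial markers were positive with a median of 0.68, and their sums were 210.7 to 367.1, 117.8 to 235.5 and 203.8 to 264.1 CPM. Of 10 macrophage markers 7 were positive, with a median of 0.37 and sums of 539.8 to 703.2, 450.1 to 613.1 and 247.0 to 623.0 CPM. The 10 adipocyte markers were all positive with a median of 2.66 and sums of 55.3 to 1263, 32.8 to 335.3 and 108.2 to 330.8 CPM. The part of these cells in the Zeb values was not tested.

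**Figure D3:**
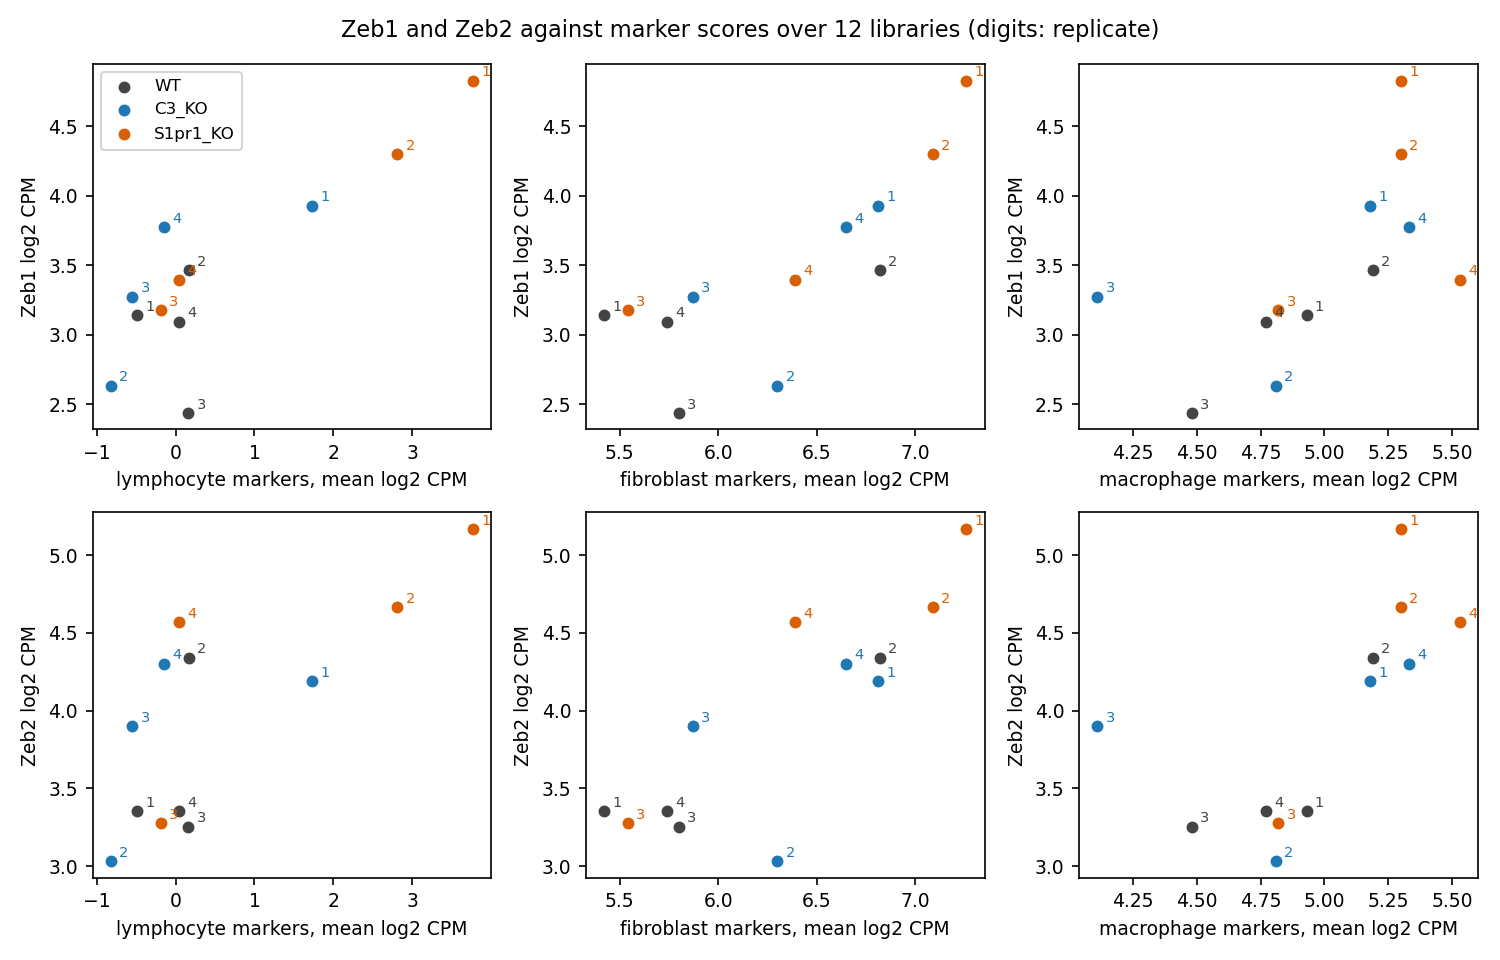
log2 CPM of Zeb1 (top) and Zeb2 (bottom) against the mean log2 CPM of lymphocyte, fibroblast and macrophage markers, 1 point per library with its replicate number. S1pr1_KO replicates 1 and 2 sit at the upper right of the lymphocyte and fibroblast panels, with fibroblast scores of 7.26 and 7.09.

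Over the 12 libraries, Zeb1 and Zeb2 went together. Their log2 CPM values had Pearson's r = 0.89 (permutation p = 5e-05, adjusted 0.00275 over 55 relations chosen after the values were seen) and Spearman's rho = 0.895. Without the 2 libraries farthest from the Zeb1 median, r was 0.79. Of those 55 relations, 45 were pairs of the 10 genes and 10 were with the lymphocyte score, and 4 passed by Pearson's r. The others that passed were Zeb1 and Zeb2 with the lymphocyte score and Vim with Twist1, where libraries fell into separate clusters and no pooled r is given. S1pr1_KO replicates 1 and 2 and C3_KO replicate 1 stood apart in the lymphocyte score. Without S1pr1_KO replicates 1 and 2, r with that score was 0.549 for Zeb1 and 0.433 for Zeb2. Within the other 9 libraries, r with that score was 0.197 for Zeb1 (rho 0.15, exact permutation p = 0.612, adjusted 0.612 over 5 relations within clusters) and 0.424 for Zeb2 (rho 0.4, exact permutation p = 0.251, adjusted 0.314). These 9 libraries span only -0.82 to 0.17 of the score, so r within them covers a narrow range and does not settle the relation. By Spearman's rho, 3 of the 55 passed: Zeb1 with Zeb2, Vim with Twist1, and Cdh1 with the lymphocyte score, a negative relation. Within the same 9 libraries, r of Cdh1 with that score was -0.687 (rho -0.8, exact permutation p = 0.0435, adjusted 0.125).

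Of 70 relations of the 10 genes with 6 cell type scores and the library total, 0 passed after adjustment, by Pearson's r or by Spearman's rho. The lowest adjusted values were for fibroblast markers. Zeb2 had r = 0.841 and rho = 0.797 (permutation p = 0.00126, adjusted 0.0696), with 0.776 when the 2 libraries farthest from the median score were left out. Zeb1 had r = 0.781 and rho = 0.825 (permutation p = 0.00199, adjusted 0.0696), with 0.738 without those libraries. Zeb1 with blood endothelial markers had r = 0.731 and rho = 0.685 (permutation p = 0.0083, adjusted 0.0968). This r was 0.337 without WT replicate 3 and S1pr1_KO replicate 1. Zeb2 with macrophage markers had r = 0.66 and rho = 0.755 (permutation p = 0.0184, adjusted 0.161). Zeb1 and Zeb2 with adipocyte markers each had r = 0.755 (adjusted permutation p 0.0767 for both). Without S1pr1_KO replicates 1 and 2 these were 0.441 and 0.539, so they rest in part on those libraries.

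Snai1, the Snail repressor, had no steady difference between genotypes. It was at 11.5, 6.41, 4.92 and 1.96 CPM in WT, 3.53, 14.1, 11.0 and 4.89 in C3_KO, and 5.42, 4.04, 9.07 and 6.38 in S1pr1_KO tumours. The lowest library and one of the highest were both WT, and the 3 groups overlapped. In C3_KO against WT the log2 fold change was 0.44 (SE 0.53, interval -0.70 to 1.57), and in S1pr1_KO against WT 0.01 (interval -1.12 to 1.14). Intervals of this width leave room for differences of over 2-fold.

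Snai2, known as Slug and typical of basal mammary cells, was at 5.30, 4.11, 4.36 and 9.07 CPM in WT, 9.49, 2.60, 7.38 and 5.93 in C3_KO, and 8.23, 6.89, 4.95 and 3.05 in S1pr1_KO tumours. Its groups overlapped, with log2 fold changes of 0.15 (interval -0.76 to 1.07) for C3_KO and 0.02 (interval -0.90 to 0.93) for S1pr1_KO against WT. Snai1 and Snai2 tended to opposite libraries: WT replicate 4 had the lowest Snai1 with high Snai2, and C3_KO replicate 2 had the highest Snai1 with the lowest Snai2. Their r of -0.595 (rho -0.622, permutation p = 0.0415, adjusted 0.277) did not pass and was -0.27 without these 2 libraries. The FPKM ratio of Snai2 to Snai1 ran from 0.148 to 3.71 and was above 1 in 4 of 12 libraries.

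Twist1, a helix-loop-helix factor of mesenchymal cells, split the libraries of every genotype in the same way. It was at 6.04, 6.05, 2.49 and 2.66 CPM in WT, 5.89, 4.66, 2.11 and 2.08 in C3_KO, and 5.20, 4.88, 2.49 and 1.84 in S1pr1_KO tumours. Replicates 1 and 2 of each genotype were at 4.66 CPM or more and replicates 3 and 4 at 2.66 or less. Replicate numbers follow the order of deposit and the labels name no batch, so what these libraries share was not tested. Between genotypes the log2 fold change was -0.23 (SE 0.48, interval -1.26 to 0.81) for C3_KO and -0.26 (interval -1.29 to 0.78) for S1pr1_KO against WT.

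Twist2, its paralog, was the lowest of the 10. It was at 0.638, 1.32, 0.909 and 0.769 CPM in WT, 1.37, 1.16, 0.979 and 0.449 in C3_KO, and 0.997, 1.07, 0.743 and 0.739 in S1pr1_KO tumours. Replicates 1 and 2 were above 3 and 4 in C3_KO and S1pr1_KO tumours, while in WT tumours replicate 1 was the lowest. The groups overlapped, with log2 fold changes of 0.12 (interval -0.73 to 0.97) and -0.04 (interval -0.89 to 0.82) against WT. Twist1 exceeded Twist2 in FPKM by 4.21 to 18.5 times over the libraries.

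Vim, the intermediate filament vimentin, was abundant in all tumours. It was at 608.2, 475.9, 378.8 and 392.2 CPM in WT, 470.9, 461.1, 232.8 and 336.8 in C3_KO, and 453.6, 365.7, 473.3 and 246.1 in S1pr1_KO tumours. The lowest libraries were C3_KO replicate 3 and S1pr1_KO replicate 4, and the groups overlapped. The mean was 464 ± 106 CPM (SD, n = 4) in WT, 375 ± 113 in C3_KO and 385 ± 104 in S1pr1_KO tumours. The log2 fold change was -0.31 (SE 0.29, interval -0.94 to 0.33) for C3_KO and -0.27 (interval -0.90 to 0.36) for S1pr1_KO against WT, with adjusted p of 0.805 and 0.676 by edgeR.

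Vim was set against the same scores, and none of its relations with them passed. With the fibroblast score its r was -0.0568 (rho -0.189, permutation p = 0.858, adjusted 0.958), whereas with luminal epithelial markers it was 0.758 (rho 0.79, permutation p = 0.00448, adjusted 0.0767). Without WT replicate 1 and S1pr1_KO replicate 4 the latter was 0.478, so it rests in part on those libraries. Vim was also higher where Twist1 was higher. Within the 6 libraries of higher Twist1, r was 0.646 (rho 0.771, exact permutation p = 0.171, adjusted 0.285), and within the 6 of lower Twist1 it was 0.811 (rho 0.771, exact permutation p = 0.05, adjusted 0.125).

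**Figure D4:**
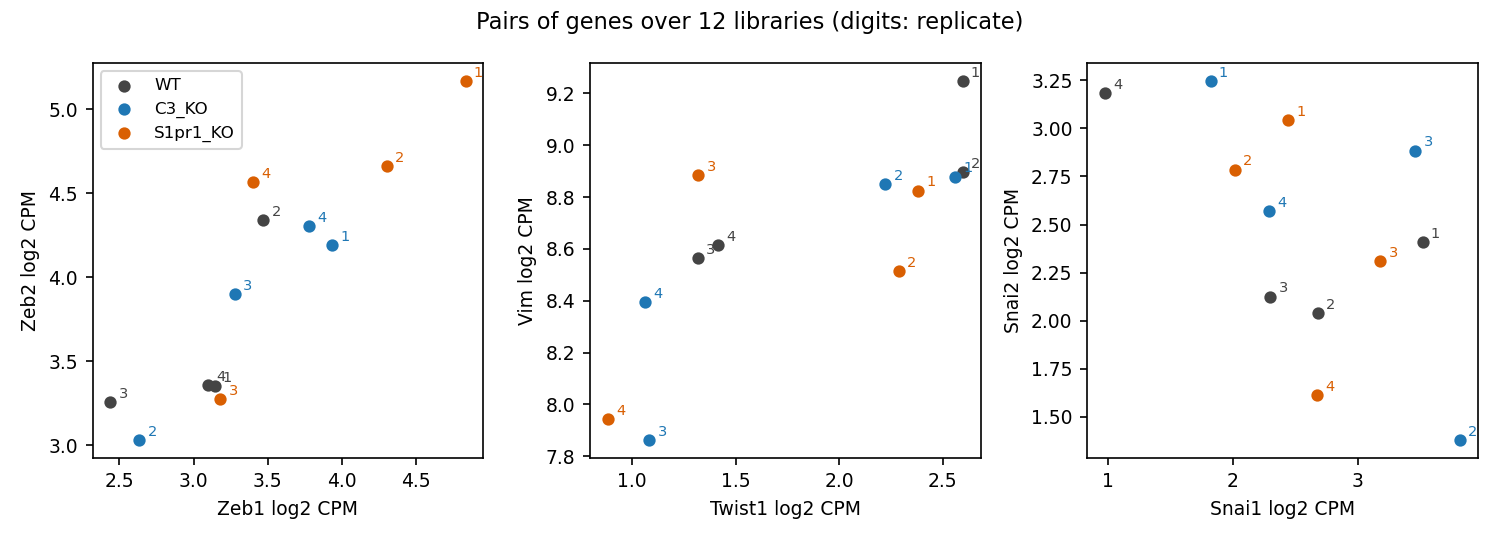
log2 CPM of 3 pairs of genes in the 12 libraries, coloured by genotype with the replicate number. Zeb1 and Zeb2 lie along a rising line (r = 0.89), Twist1 falls into 6 lower and 6 higher libraries against Vim, and Snai1 and Snai2 lie on a loose falling line (r = -0.595).

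Cdh2 was at 11.5, 6.78, 7.04 and 7.87 CPM in WT, 12.7, 4.69, 3.98 and 14.8 in C3_KO, and 11.3, 11.1, 5.40 and 5.71 in S1pr1_KO tumours. Each knockout group held 2 higher and 2 lower libraries, and WT replicate 1 lay among the higher ones. The means of 8.29 ± 2.17, 9.05 ± 5.52 and 8.38 ± 3.27 CPM (SD, n = 4) differed by less than the spread. Against WT the log2 fold change was 0.13 (interval -0.81 to 1.06) for C3_KO and 0.02 (interval -0.92 to 0.95) for S1pr1_KO.

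Cdh1, the epithelial cadherin of adherens junctions, was the steadiest of the 10. It was at 452.6, 279.5, 295.3 and 336.3 CPM in WT, 300.3, 367.6, 472.0 and 351.4 in C3_KO, and 259.4, 342.7, 343.4 and 392.2 in S1pr1_KO tumours. WT replicate 1 and C3_KO replicate 3 were the highest, S1pr1_KO replicate 1 was the lowest, and the groups overlapped. With Zeb1, the r of Cdh1 was -0.367 (rho -0.308, permutation p = 0.241, adjusted 0.483), and it was -0.0518 without S1pr1_KO replicates 1 and 2. The log2 fold change was 0.13 (SE 0.24, interval -0.38 to 0.64) for C3_KO and -0.03 (interval -0.54 to 0.48) for S1pr1_KO against WT. The sign of the latter value turned in 12 of 22 alternatives. With library totals alone the value was 0.19, where the median over all genes was 0.20.

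Epcam, an epithelial surface adhesion protein, was at 685.8, 473.1, 638.4 and 628.6 CPM in WT, 463.4, 552.0, 800.8 and 554.6 in C3_KO, and 413.8, 449.6, 376.2 and 672.2 in S1pr1_KO tumours. In CPM, 3 of 4 S1pr1_KO libraries were below every WT library, and replicate 4 was among the higher ones. In FPKM, S1pr1_KO replicate 2 lay within the WT range, at 266.8 against 218.1 to 271.8. Replicate 4 was then the highest of all libraries, at 357.7. The deposited FPKM is scaled by library totals alone, whereas CPM here also uses TMM factors. Those factors were 1.3 and 1.17 in S1pr1_KO replicates 2 and 4, against 0.868 to 1.01 in WT tumours, so the 2 scales differ most there. The mean was 478 ± 133 CPM (SD, n = 4) in S1pr1_KO, 606 ± 92.3 in WT and 593 ± 145 in C3_KO tumours. The log2 fold change was -0.34 (SE 0.26, interval -0.91 to 0.22) for S1pr1_KO against WT, with an adjusted p of 0.538 by edgeR, and -0.03 (interval -0.60 to 0.53) for C3_KO.

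Other genes of the pathway showed no called difference either. TGF-beta is the best known inducer of the transition. Of 12 genes, its ligands, receptors and Smads together with Ltbp1 and Thbs1, 0 were called in any comparison by edgeR. In S1pr1_KO against WT, 9 of the 12 were positive with a median of 0.14, and 2 had an unadjusted p under 0.05, a share near the 15.5% of all genes. Tgfbr3, the co-receptor betaglycan, was at 62.5 ± 13.5 CPM (SD, n = 4) in S1pr1_KO and 34.1 ± 6.13 in WT tumours with no overlap (as for 7.58% of all genes), a log2 fold change of 0.88 and an adjusted p of 0.198 by edgeR. Tgfbr1, the type I receptor, had 0.68 (adjusted p 0.293). In C3_KO against WT, 9 of 12 were positive with a median of 0.16, and 2 had an unadjusted p under 0.05, where 6.23% of all genes lay. Tgfbr2, the type II receptor, was at 218 ± 43.8 CPM in C3_KO and 142 ± 34.2 in WT tumours (log2 fold change 0.63, adjusted p 0.765 by edgeR), and the ligand Tgfb3 had 0.47 without overlap of the groups, as for 3.04% of all genes.

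Factors that keep the epithelial state gave 0 calls among 14 genes, and none had an unadjusted p under 0.05 by edgeR. Of all genes, 6.23% lay there for C3_KO and 15.5% for S1pr1_KO against WT, and 3.4% for S1pr1_KO against C3_KO. Their median log2 fold change was 0.06 in both comparisons with WT, with 8 positive in C3_KO and 9 in S1pr1_KO. Grhl2, a grainyhead factor of epithelia, was at 60.8 ± 5.41 CPM (SD, n = 4) in C3_KO and 46.8 ± 2.17 in WT tumours with no overlap (3.04% of all genes), a log2 fold change of 0.38 and an adjusted p of 0.765 by edgeR. Ovol2, a repressor of Zeb1, was at 4.16 ± 0.850 CPM in S1pr1_KO and 6.03 ± 1.05 in WT tumours, a log2 fold change of -0.54 and an adjusted p of 0.384 by edgeR. Of 22 epithelial junction and surface genes 0 were called and none had an unadjusted p under 0.05, beside the same shares of all genes. In S1pr1_KO against WT, 6 were positive and 16 negative with a median of -0.23, against 0.03 over all genes. Crb3, a polarity protein known as a target of Zeb1, had -0.65 in S1pr1_KO (adjusted p 0.398 by edgeR) and -0.72 in C3_KO tumours (adjusted p 0.765). Tjp1, the tight junction protein ZO-1, had 0.69 in S1pr1_KO and Dsp, desmoplakin, 0.95 in C3_KO tumours, neither called. Dsp was at 193 ± 142 CPM (SD, n = 4) in C3_KO and 100 ± 11.0 in WT tumours, so its C3_KO libraries were uneven.

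Of 24 further mesenchymal genes 0 were called. In S1pr1_KO against WT, 12 were positive and 12 negative with a median of 0.00. An unadjusted p under 0.05 was found for 2 of the 24, a smaller share than the 15.5% of all genes. These were Cdh11, a cadherin of mesenchymal cells, at 18.3 ± 9.38 CPM (SD, n = 4) against 8.58 ± 4.65 (log2 fold change 1.09, adjusted p 0.308 by edgeR), and Foxf1 at 0.545 ± 0.242 against 0.288 ± 0.0821 CPM (0.92, adjusted p 0.316). In C3_KO against WT, 16 were positive and 8 negative with a median of 0.18, and Foxc1, a forkhead factor, alone had an unadjusted p under 0.05, where 6.23% of all genes lay. Foxc1 was at 33.3 ± 8.57 CPM in C3_KO and 61.9 ± 17.5 in WT tumours, a log2 fold change of -0.89 with an adjusted p of 0.765 by edgeR. Luminal markers had a median of -0.66 in S1pr1_KO against WT with 4 of 10 positive, and basal markers -0.05 with 4 of 10 positive.

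For each gene, the 3 genes of most similar log2 CPM were found among 13136 genes by Pearson's r over the 12 libraries, as a description without a test. Genes nearest to Zeb1 were Ppp1r16b (r = 0.983), Gimap4 (0.979) and Gimap6 (0.978). Gimap genes are known from lymphocytes, but not only from them. Zeb1 also had r = 0.731 with blood endothelial markers, which did not pass (adjusted permutation p = 0.0968). Which cells these genes came from was not tested. Nearest to Zeb2 were Aim2 (0.961), Gvin3 (0.959) and Nlrc3 (0.956), of which Aim2 is a cytosolic DNA sensor of leukocytes. When the 2 libraries farthest from the median of the Zeb gene were left out, these 6 values were 0.919 to 0.979, and over the neighbours of all 10 genes they were 0.726 to 0.979. Nearest to Twist1 were Shank1 (0.888), Pcolce (0.875) and Aebp1 (0.834), the last 2 being matrix genes of fibroblasts. With the fibroblast score, Twist1 itself had r = 0.387 (rho 0.238, permutation p = 0.208, adjusted 0.512), which did not pass. Nearest to Twist2 were the fibroblast and T-cell surface gene Thy1 (0.852), Mfrp (0.814) and C1qtnf5 (0.812). Mfrp and C1qtnf5 had nearly the same CPM in every library, such as 13.33 and 13.18 in WT replicate 2. They are therefore not separate observations. Snai2 was nearest to Capn6 (0.901), Mir205hg (0.892), the host gene of a basal epithelial miRNA, and Kctd4 (0.879), which were 0.824, 0.726 and 0.747 without the 2 libraries farthest from the Snai2 median. Snai1 was nearest to Cyp26b1 (0.914), Tlcd3b (0.905) and Myo18a (0.904). Vim was nearest to Apbb1 (0.944), Fam178b (0.941) and Tmem255b (0.933), none of them among the markers of fibroblasts used here. Cdh2 was nearest to Kctd7 (0.934), the oestrogen receptor gene Esr1 (0.926) and Fgf11 (0.914). Cdh1 was nearest to Kif24 (0.922), the endoplasmic reticulum gene Pdia4 (0.921) and Hnrnpf (0.918), and Epcam to Arf2 (0.961), Rraga (0.926) and Stard4 (0.903).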

How the data were processed

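RNA of 12 primary tumours was sequenced, with 4 libraries per genotype grouped by the genotype label and replicates numbered in order of deposit. The authors deposited raw counts per gene and an FPKM table for the same 12 samples. Of 682320 deposited FPKM values, 682317 equalled the count scaled by gene length and column total within a relative tolerance of 1e-04. Per the submitters' processing notes, StringTie and GRCm39 (mm39) were used. Aligner, counter and strand handling: not given in the sources used here. No column was left unused.

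Counts were tested with edgeR 4.0.16 in R 4.3.3: its low-count filter, TMM scaling, a robust quasi-likelihood F-test over all 12 libraries with 9 residual degrees of freedom, and Benjamini-Hochberg adjustment over 30660 genes, called under 0.05. CPM are counts per 1e6 scaled with TMM factors, and log2 CPM uses a prior count of 2. Lists were scored by averaging log2 CPM over their genes. Correlations used permutation of libraries with 1e+05 resamples (numpy 2.4.6, scipy 1.17.1), or every ordering where called exact. All permutation tests were two-sided. Alternatives were DESeq2 1.42.0, limma 3.58.1 (voom with quality weights, and log2(FPKM + 1)), other scalings and filters, and leaving out libraries. The fits were tested on simulated data with known changes.

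The 10 genes and the gene lists were chosen with earlier results of these data known. All 10 genes were named with values, of each other list with no call up to 2 genes of smallest p per comparison could be named, and for each of the 10 the 3 genes of highest r among named genes whose log2 CPM averaged 1 or more. Even numbers made up more of the low counts than odd ones, as when both mates of a pair are counted, so totals may overstate fragments.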

Additional observations from a re-analysis of the deposited data

Results flagged for a closer look

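In WT tumours, Zeb2 in replicate 2 stood apart from the other libraries of its group, at 20.3 CPM against 9.53 to 10.2. The gap to its nearest neighbour was 0.935 of the group's whole range, above Dixon's critical value for 4 samples. Of the 30 groups of 4 libraries (10 genes in 3 genotypes) this was the only one past that value, and chance marks about 1 in 20 groups. The same library had the highest fibroblast score of the WT tumours, 6.82 against 5.42 to 5.80, the highest adipocyte score, 3.94 against 0.00 to 0.94, and the highest skeletal muscle score, 7.93 against 0.46 to 2.40. Whether those cells contribute to its Zeb2 level was not tested.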

How the results depend on the processing

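Each of the 30 log2 fold changes was recomputed under 22 alternatives. Of 660 values, 584 kept direction and call, 74 changed sign and 2 passed the threshold, and 12 of the 30 never changed sign. The largest original size among those that did was 0.26. Only limma-voom with quality weights changed calls: 2 of the 10 genes for S1pr1_KO against WT (Zeb1 1.10, Zeb2 1.19) and 1 for any difference. Over all alternatives Zeb1 ran from 0.57 to 1.25 and Zeb2 from 0.48 to 1.24. Both lower ends came from log2(FPKM + 1), where the added 1 shrinks differences of genes at low FPKM. In WT tumours Zeb1 was at 0.483 to 1.09 FPKM and Zeb2 at 0.431 to 1.015. These lower ends are therefore not on the same scale as the other values. Where alternatives turned a sign, the cause was not tested.

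Epcam in C3_KO against WT was 0.027 with a CPM of at least 1 in 4 libraries, 0.10 with library totals alone and 0.078 on log2(FPKM + 1). Twist2 in S1pr1_KO against WT was 0.028, 0.14 and 0.032 under these settings, and Cdh1 was 0.048, 0.19 and 0.15. Twist1 in S1pr1_KO against C3_KO was 0.034 with library totals, 0.019 on log2(FPKM + 1) and 0.003 with only those 2 genotypes. With DESeq2, Twist2 and Cdh1 in S1pr1_KO against WT were 0.001 and 0.002, with size factors in edgeR 0.002 and 0.002, and with no filter 0.011 and 0.02. limma-voom gave Twist1 0.033 in C3_KO against WT. In S1pr1_KO against WT it gave Snai2 -0.15, Twist1 0.13, Twist2 0.11 and Cdh1 0.042, and in S1pr1_KO against C3_KO Twist1 0.10, Twist2 0.11 and Vim -0.089. Without the 3 libraries rich in salivary or milk transcripts, an alternative added after the data were seen, Twist2 and Cdh1 in S1pr1_KO against WT were 0.056 and 0.067, and Snai2 and Cdh1 against C3_KO were 0.017 and 0.043. With library totals alone the median of all genes moved from 0.05 to 0.19 in C3_KO and from 0.03 to 0.20 in S1pr1_KO against WT, so changes there are relative to that shift.

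Leaving out 1 library at a time gave these ranges for values that changed sign. In C3_KO against WT, Twist2 ran from -0.079 to 0.36, Epcam from -0.21 to 0.065, Snai2 from -0.11 to 0.49, Cdh2 from -0.22 to 0.37 and Cdh1 from -0.006 to 0.29. In S1pr1_KO against WT, Snai2 ran from -0.14 to 0.38, Cdh1 from -0.12 to 0.14, Twist2 from -0.18 to 0.20, Cdh2 from -0.15 to 0.22 and Snai1 from -0.23 to 0.49. In S1pr1_KO against C3_KO, Snai2 ran from -0.40 to 0.13, Twist1 from -0.23 to 0.29, Twist2 from -0.40 to 0.041, Cdh2 from -0.36 to 0.23 and Vim from -0.14 to 0.20.

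The count of correlations with cell type scores that passed was 6 on log2(FPKM + 1) and 0 to 6 when 1 library was left out: 6 without C3_KO replicate 2, 3 without C3_KO replicate 3 and 4 without S1pr1_KO replicate 3. Over the whole table, edgeR called 0 genes for S1pr1_KO against WT, with 4743 at an unadjusted p under 0.05, against 955 with DESeq2, 7837 with limma-voom, 30 on log2(FPKM + 1) and 1330 without S1pr1_KO replicate 3. For C3_KO against WT the counts were 0 (1909 unadjusted), 82 with DESeq2 and 5 with limma-voom, and for S1pr1_KO against C3_KO 0 (1042), 114 and 0. The lowest counts of the 10 genes were those of Twist2, down to 131, and how far depth or the number of tumours sets the intervals was not tested. No paired analysis was possible because the labels give no shared replicate numbers.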
